A study of Mus musculus with 2 samples.

Results

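The Neuroectoderm/Glia cells were the 502 cells that carried this name in the authors' annotation, out of 5678 annotated cells of mouse embryos at E11.5. They were found by matching the cell barcodes of the annotation to the count matrices of 4 cell suspensions, and the choice rested on that annotation alone. Suspension F0_8 held 164 of them, F0_9 held 151, F1_1 held 79 and F1_mix held 108, and no barcode occurred in more than 1 matrix. The other annotated neural types, used here for comparison, were CNS Neuron (532 cells), Neuronal Progenitor (597 cells) and Ependymal Cell (137 cells).

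F0_8 and F0_9 were founder embryos, made by electroporation of fertilized C57BL/6J eggs with mPBase mRNA and microinjection of a piggyBac donor in which the CAG promoter drives EGFP linked to a DNA barcode. F1_1 came from a single F1 embryo, whereas F1_mix combined the cells of a pair of F1 embryos as an artificial mosaic. All of them carried the EGFP transgene and no suspension lacked it, so that every comparison of generations is between transgenic embryos. The whole embryos had been minced and trypsinized, the cells of each suspension had been tagged with a multiplexing oligo (CellPlex), and all suspensions were sequenced as 1 pooled 3′ library. The labels do not give the parents of the F1 embryos, and each generation is represented by 2 suspensions.

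When a neural progenitor divides for the last time, it switches off the neuroepithelial programme held by Notch signalling and Sox2, passes through a short phase driven by proneural bHLH factors, and then assembles the cytoskeleton, channels and synaptic machinery of a neuron. Neuroectoderm is the epithelium that precedes this switch, and glia arise from the progenitors that remain or, in peripheral nerves, from Sox10-positive neural crest. In the mid-gestation neural tube and brain the first neurons already carry transcription factor codes and transmitter genes that mark their class.

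The Neuroectoderm/Glia cells expressed neuronal genes, few glial transcripts, and genes of the neuroepithelium at lower levels than the other neural types. Levels below are unique molecular identifiers (UMIs) of a gene or a gene list per 10000 gene UMIs, summed over the cells of a type. Summed over the 4 markers given for the label (Tubb3, Stmn2, Elavl3 and Dcx), the level was 65.9 and 71.2 in founders F0_8 and F0_9 and 81.2 and 80.2 in F1_1 and F1_mix. The pooled level of 73.3 (95% Poisson interval 72.6 to 74.0) was the highest of all 16 annotated types. CNS Neuron cells stood at 55.7, Neuronal Progenitor cells at 4.74 and Ependymal cells at 1.48. The markers therefore matched the cluster in every suspension, whereas the words of its name did not match its genes, and the name is kept below only as the name of the cluster. Since these genes took part in the clustering that defined the types, differences between types are described by suspension and carry no test.

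**Figure D1:**
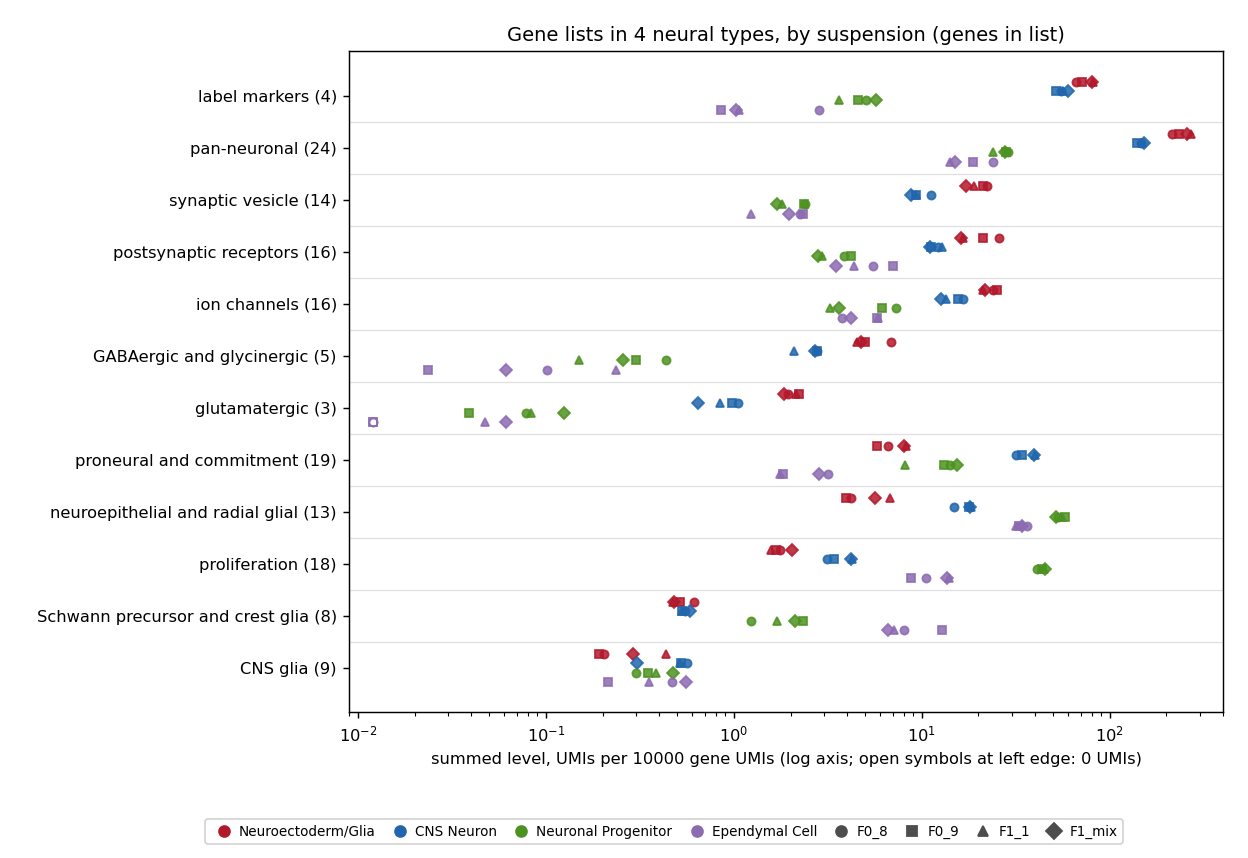
Summed level of gene lists (UMIs per 10000 gene UMIs, log axis) in the 4 annotated neural types, with 1 symbol for each of the 4 suspensions and open symbols at the left edge for 0 UMIs. Neuroectoderm/Glia cells lie above the other types for the neuronal and synaptic lists and below them for the neuroepithelial and proliferation lists.

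The Neuroectoderm/Glia cells had a median of 11437.5 gene UMIs and 3942 genes per cell, their UMIs summed to 1860085, 1727451, 990463 and 1371286 in F0_8, F0_9, F1_1 and F1_mix, and their median mitochondrial share was 2.26%. Median depth in the other neural types ranged from 10898.5 (CNS Neuron) to 13388 (Neuronal Progenitor) gene UMIs per cell. Markers of other tissues were near 0, with pooled levels of 0.235 for 8 mesenchyme genes, 0.0437 for 7 muscle genes, 0.0689 for 6 epithelial genes and 0.0151 for 5 endothelial genes. Globin transcripts, which come from blood cells, stood at 1.24 here and at 211 in droplets of 1 to 100 UMIs, and if all of it were free RNA, such RNA would make up 0.586% of the UMIs of these cells.

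Tubb3 (chr8:123411553-123422015 on GRCm38), the beta-tubulin of neurons, had levels of 29.9, 32.1, 39.0 and 36.7 in F0_8, F0_9, F1_1 and F1_mix. In the same order Stmn2 (chr3:8509527-8561604), a microtubule regulator of growing axons, had levels of 23.8, 27.0, 30.1 and 30.4. Dcx (chrX:143855842-143933396), which stabilizes microtubules in migrating neurons, stood at 6.38, 6.70, 6.28 and 6.78, and Elavl3 (chr9:22015005-22052146), a neuronal RNA-binding protein, at 5.85, 5.38, 5.81 and 6.32. Among the 4 markers, Stmn2 set the Neuroectoderm/Glia cells apart from CNS Neuron cells, with a level 2.18-fold higher over all suspensions, whereas the ratio was 1.49 for Dcx, 1.06 for Tubb3 and 0.838 for Elavl3. Each of the 4 was at least 4.26-fold higher than in Neuronal Progenitor cells.

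Single cells gave the same picture as the sums. After thinning every cell to 5000 gene UMIs, which kept 489 of the 502 cells, all 489 had a UMI of 3 or more of the 4 markers, and 436 (89.2%, exact interval 86.1 to 91.8%) had all 4. In CNS Neuron cells 57.7% had all 4, in Neuronal Progenitor cells 2.89%, and of 135 Ependymal cells none (exact interval 0 to 2.70%). Sox2, the transcription factor that maintains neural progenitors, was found in 5.93% of Neuroectoderm/Glia cells, 24.7% of CNS Neuron cells and 81.0% of Neuronal Progenitor cells. Mki67, a protein of dividing cells, was found in 1.64%, 4.27% and 57.2% of the same types. In Erythroblast cells, which lack neuronal genes and had a median depth of 29076 UMIs, Sox2 was found in 0%, Stmn2 in 0.704% and Tubb3 in 5.63% at the same thinned depth, against 99.8% for Stmn2 and 100% for Tubb3 in Neuroectoderm/Glia cells.

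The neuroepithelial and radial glial list was lower than in the other neural types without being absent. Its 13 genes summed to 4.18, 3.94, 6.75 and 5.62 in F0_8, F0_9, F1_1 and F1_mix, against pooled levels of 17.3 in CNS Neuron, 54.3 in Neuronal Progenitor and 33.8 in Ependymal cells. Notch1, the receptor that holds progenitors undifferentiated, gave only 15 UMIs in the 502 cells, a level of 0.0252, 30.7-fold below CNS Neuron and 67-fold below Neuronal Progenitor cells. Fabp7, a fatty acid binding protein of radial glia, had a level of 0.143 against 1.99 in CNS Neuron and 14.5 in Neuronal Progenitor cells. Hes5, a Notch target, stood at 0.0336 against 3.67 in Neuronal Progenitor cells. Vim, the intermediate filament of progenitors and mesenchyme, stood at 2.58, which was 3.78-fold lower than in CNS Neuron cells, and was still found in 41.3% of the thinned cells (86.4% of CNS Neuron cells). Msi1, an RNA-binding protein of neural progenitors, stood at 0.921 against 1.48 in CNS Neuron cells and was found in 37.0% of the thinned cells, and Nes, the progenitor filament nestin, in 11.2%.

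Glial transcripts were few, at a level like that in CNS Neuron cells for crest glia. Of the 8 genes of Schwann cell precursors and neural crest glia, Cdh19 had 0 UMIs, Sox10 had 1 and Erbb3 had 2 in all 502 cells, and the list summed to 0.531 (316 UMIs), against 0.548 in CNS Neuron, 1.85 in Neuronal Progenitor and 8.53 in Ependymal cells, where Sox10 had 177 UMIs. Foxd3, a factor of neural crest that some spinal interneurons also use, gave 225 of the 316 UMIs, a level of 0.378 against 0.303 in CNS Neuron and 0.0318 in Neuronal Progenitor cells, and was higher than in the latter by 2-fold or more in all suspensions. The 9 genes of CNS glia summed to 0.259 (154 UMIs) against 0.468 in CNS Neuron cells, and Mbp, a myelin gene that is also transcribed outside oligodendrocytes, gave 101 of those UMIs here. Gfap of astrocytes and Cspg4 of oligodendrocyte precursors had 0 UMIs each, and 0 counts at this depth allow a level of up to 0.00504. Olig2, which marks motor neuron and oligodendrocyte progenitors, had 13 UMIs.

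Proliferation genes were low as well, whereas the pooled proneural level lay below CNS Neuron and Neuronal Progenitor cells and above Ependymal cells. The 18 proliferation genes summed to 1.77, the lowest level of the 16 types, against 43.7 in Neuronal Progenitor cells, and Top2a stood at 0.0622 against 5.68. The 19 genes of the proneural and commitment list summed to 6.57, 5.75, 8.27 and 8.0 by suspension, against pooled levels of 36.4 in CNS Neuron, 12.6 in Neuronal Progenitor and 2.43 in Ependymal cells, and in F1_1 it lay just above the Neuronal Progenitor cells of the same suspension (8.10). The pooled level of 6.95 ranked 3 of 16 types. Gadd45g, a stress and growth arrest gene transcribed in newborn neurons, stood at 0.156, 0.151, 0.192 and 0.168, and in CNS Neuron cells at 4.61, 5.57, 6.73 and 6.31, so that the ranges were far apart. Neurog1, a proneural factor of sensory and spinal lineages, had 5 UMIs against 548 in CNS Neuron cells. Cdkn1c, the cell cycle inhibitor of the last division, stood at 8.23 against 32.9 in CNS Neuron cells and 3.93 in Neuronal Progenitor cells.

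Against CNS Neuron cells, 241 of 4413 genes (5.46%) were higher by 2-fold or more in all 4 suspensions and 125 (2.83%) were lower, among genes with a pooled level of at least 0.5 in 1 of the types compared. A gene can meet that minimum through the type in which it is high, so gene lists were counted over all their members with no minimum, where 3.58% of 16158 genes were higher and 2.7% lower. Of the 19 proneural and commitment genes 15 were lower and none higher, and Nhlh2 (1.88-fold lower) was among the other 4. Of the 13 neuroepithelial genes 6 were lower, with Nes, Vim, Notch1, Hes5 and Fabp7 among them, and none higher. Of the 24 pan-neuronal genes 7 were higher (Stmn2, Stmn3, Stmn4, Mapt, Gap43, Ina and L1cam) and none lower, and of the 16 postsynaptic receptor genes 9 were higher, with Gria1, Gria2, Gria3 and Grin2b among them. The median log2 ratio over all members was -2.93 for the proneural list, -1.54 for the neuroepithelial list, 0.92 for the pan-neuronal list and 1.71 for the postsynaptic receptors, with 0.00074 over the 16158 genes.

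Several of these genes belong to the axon. Mapt, the microtubule-associated protein tau, had levels of 5.97, 6.54, 5.35 and 4.93 in F0_8, F0_9, F1_1 and F1_mix and of 0.341, 0.454, 0.504 and 0.464 in CNS Neuron cells, a mean log2 ratio of 3.69 (SD 0.35, n = 4 suspensions). Ina, a neurofilament of young axons, had levels of 16.0, 18.2, 20.1 and 19.0 against 2.75, 4.26, 4.79 and 4.78. Gap43, a growth cone protein, had levels of 6.96, 8.66, 13.8 and 9.76 against 2.18, 2.15, 2.42 and 2.06. For all 3 genes the suspensions of the types did not overlap. L1cam, a cell adhesion molecule of axon bundles, was 7.02-fold higher.

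Synaptic and channel genes were higher in part than in CNS Neuron cells. Over all 16158 genes 3.58% were higher and 2.7% lower by 2-fold or more in all suspensions. The 14 synaptic vesicle genes summed to 22.1, 21.1, 19.0 and 17.1 by suspension against a pooled 9.56 in CNS Neuron and 2.02 in Neuronal Progenitor cells, with 4 of the 14 genes past 2-fold in all suspensions, the vesicle proteins Syt4, Sv2a and Rab3a among them, and 1 lower (Cplx2, 3.37-fold). Syt1, the calcium sensor of vesicle release, stood at 7.63, 7.32, 6.48 and 4.56 against 3.36, 2.23, 3.14 and 2.60, without overlap between the types. Of the 16 ion channel genes 6 were higher, with Scn2a, Scn3a and Kcnd2 among them, and the sodium channel gene Scn3a was 2.42-fold higher. Of the 22 axon guidance receptor genes 5 were higher, with Robo2, Unc5d and Ephb1 among them, whereas the netrin receptor gene Dcc stood at 28.8, 28.4, 29.4 and 30.8 against 88.9, 85.2, 94.7 and 81.5 in CNS Neuron cells. The list of 22 receptors as a sum was thus lower than in CNS Neuron cells (78.7 against 122), and Dcc carried that direction.

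Against Neuronal Progenitor cells 740 of 4988 genes (14.8%) with the minimum level were higher by 2-fold or more in the 4 suspensions and 636 (12.8%) lower, and with no minimum 9.47% and 9.96% of 16391 genes. With no minimum, all 24 pan-neuronal genes and 12 of the 14 synaptic vesicle genes were higher. All 18 proliferation genes and 12 of the 13 neuroepithelial genes were lower, and Msi1 was the exception. Against Ependymal cells 617 of 4995 genes (12.4%) were higher and 584 (11.7%) lower, and the 8 genes with the lowest ratios included the crest and pigment cell genes Cdh19, Sox10, Pmel and Dct. Pmel of melanosomes had 3 UMIs here and 580 in Ependymal cells.

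The genes that led the Neuroectoderm/Glia cells over all 3 other neural types were Vstm2l, Mapt, Gpc5, Resp18, Mtus2, Cnih2, Snhg11, Cntnap2, Rgs17, Lingo1, Rbfox1, Rgs7, Sez6l2, Fam57b and Ntm, ranked by the smallest ratio over suspensions. Resp18, a secretory granule protein of neuroendocrine cells, stood at 1.06, 1.33, 1.39 and 0.992 and reached at most 0.160 in any suspension of CNS Neuron cells. Rbfox1, a neuronal splicing factor, stood at 9.13, 11, 5.06 and 4.45 against 1.64, 1.63, 0.893 and 0.813. Cntnap2, an adhesion protein of the axon, was 7.25-fold higher than in CNS Neuron cells. Nrg3, a growth factor of the neuregulin family, led the ratios against CNS Neuron cells with levels of 6.77, 8.02, 2.65 and 5.21 against 0.121, 0.103, 0.107 and 0.0573. At the other end, Tlx2, a homeobox gene of peripheral neurons, had 1 UMI here and 381 in CNS Neuron cells.

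**Figure D2:**
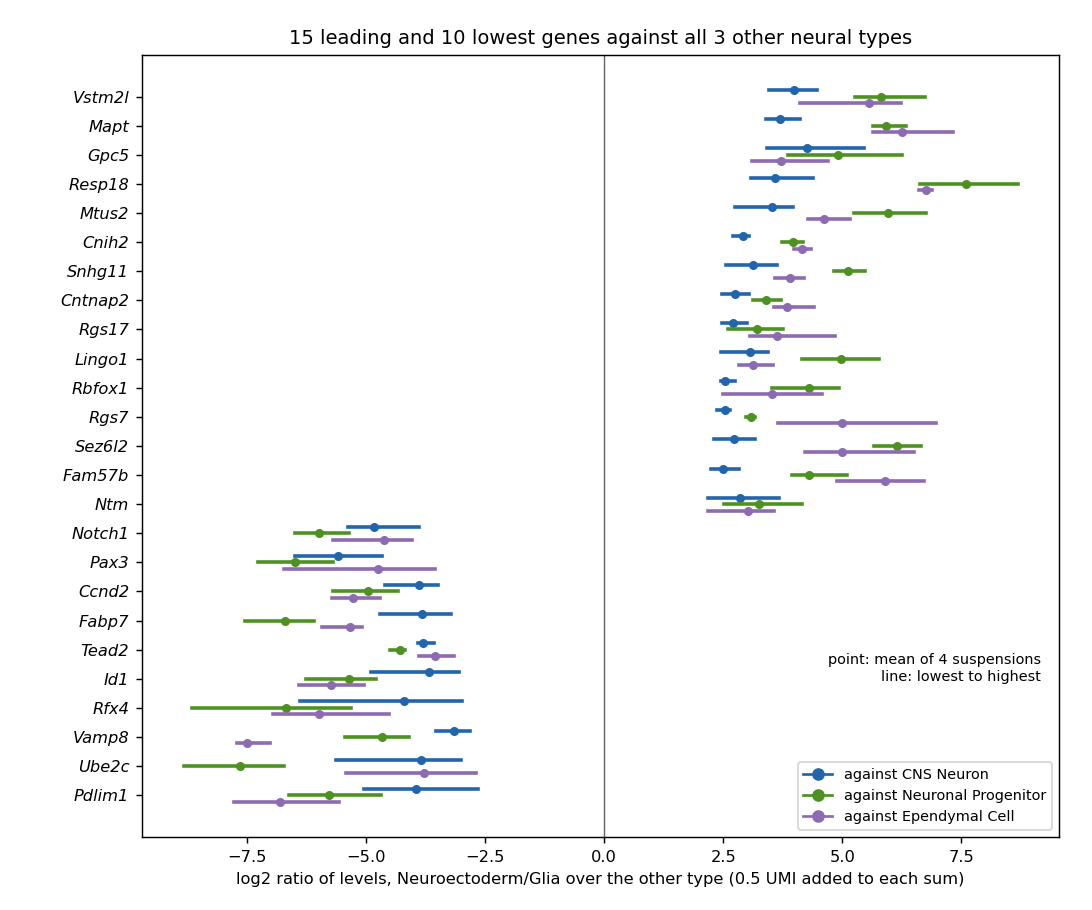
Log2 ratio of levels in Neuroectoderm/Glia cells to those in each other neural type (0.5 UMI added to each sum) for the 15 leading and the 10 lowest genes. Points are means of the 4 suspensions and lines run from the lowest to the highest suspension, and every line stays on 1 side of 0 (Mapt against CNS Neuron has a mean of 3.69, Notch1 of -4.83).

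Many of the high genes were long. Of the 241 genes higher than in CNS Neuron cells, 158 (65.6%) spanned more than 100 kb of the genome, with a median of 238 kb, whereas of all genes tested 24.2% did (median 31.8 kb). Of the 125 lower genes 31.2% were that long. Outside mitochondrial genes, long genes held 24.9%, 23.8%, 21.4% and 21.0% of the UMIs in F0_8, F0_9, F1_1 and F1_mix, against 19.7%, 19.6%, 19.0% and 17.6% in CNS Neuron cells. The part of gene length in the differences was not tested. Mapt (103 kb) lies close to the limit, and Ina, Stmn3 and Resp18 lie far under it, at 10.6, 8.04 and 6.22 kb.

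Across 6870 genes, with levels centred over the 16 types on a log2 scale after addition of 0.05, the profile of the Neuroectoderm/Glia cells correlated with that of CNS Neuron cells at r = 0.828, with Neuronal Progenitor cells at 0.160 and with Ependymal cells at 0.0187. Types with shallow cells gave r = 0.637 (Midgut, median of 998 gene UMIs per cell), 0.263 (Foregut, 1241), 0.182 (Endodermal Progenitor, 721.5) and 0.104 (Hepatocyte, 1674), and the part of depth in these values was not tested. These correlations are over genes of 1 library, which are not independent. Before noise reduction with RECODE the authors' clustering had placed 431 of the 502 cells (85.9%) in cluster 3 and 68 (13.5%) in cluster 5, and the same clusters held 112 and 379 of the CNS Neuron cells. The 68 cells of cluster 5 had a proneural level of 10.7 against 6.36 in cluster 3, a cell cycle exit level of 21.4 against 8.16, and a pan-neuronal level of 247 against 238. Within cluster 3, CNS Neuron cells still had a higher proneural level (18.8) and a lower pan-neuronal level (165) than Neuroectoderm/Glia cells.

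The classes of neuron were read from 85 identity genes (transcription factors, receptors and transmitter genes) in the thinned cells. Of these, 40 had a UMI in 5% or more of the cells. The most widespread were Lhx1 (44.0%), a LIM homeodomain factor of interneurons and Purkinje lineages, Onecut2 (40.7%), Slc17a6 (38.4%), the vesicular glutamate transporter VGLUT2, and Gad2 (38.2%), which makes GABA. They were followed by Lhx5 (36.2%), Reln (33.1%), Ntrk3 (29.7%), Gad1 (22.9%), Pax2 (21.5%), Slc32a1 (20.9%), Lhx9 (20.7%) and Lhx2 (20.0%). In Erythroblast cells at the same depth Reln was found in 7.04%, Lhx1 and Onecut2 in 1.41% and Slc17a6 and Gad2 in 0%. Lhx1 led over all suspensions pooled but not in each, since Onecut2 was found in 66.2% of the cells of F1_1 against 45.5% for Lhx1, and Gad2 in 45.9% of F0_8 against 42.8%.

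**Figure D3:**
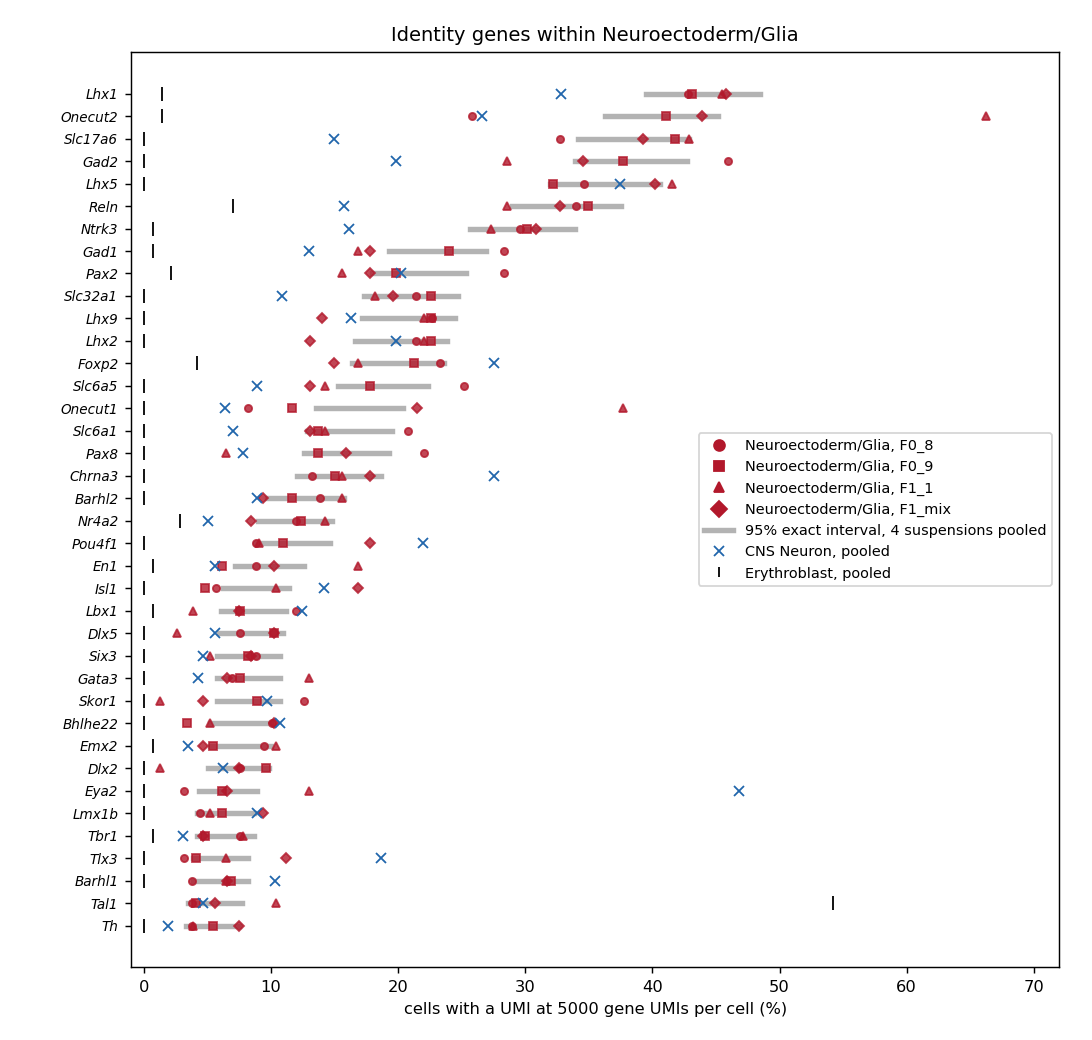
Percent of cells, thinned to 5000 gene UMIs, with a UMI of identity genes found in 5% or more of them, where filled symbols are the 4 suspensions of Neuroectoderm/Glia cells, grey bars their pooled 95% exact interval, crosses pooled CNS Neuron cells and ticks pooled Erythroblast cells. Lhx1 (44.0% pooled) heads the list, Onecut2 spreads from 25.8% in F0_8 to 66.2% in F1_1, and Tal1, a factor that red cell precursors also use, is at 54.2% in Erythroblast cells.

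Transmitter genes split the cells almost without overlap. Slc17a6 was found in 188 of 489 cells (38.4%), and Gad1, Gad2 or the vesicular transporter gene Slc32a1 in 204 (41.7%), while 1 cell had both and 98 (20.0%) had neither. The product of the shares would give 78.4 cells with both. By suspension the Slc17a6 share was 32.7%, 41.8%, 42.9% and 39.3%, and the Gad1, Gad2 or Slc32a1 share 47.8%, 42.5%, 31.2% and 39.3% in F0_8, F0_9, F1_1 and F1_mix. In CNS Neuron cells 15% had Slc17a6, 22.5% had one of the others and 63.1% had neither. As a level, Slc17a6 stood at 1.77, 2.17, 2.12 and 1.82 against 0.946, 0.690, 0.542 and 0.578 in CNS Neuron cells.

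Many but not all of the identity genes followed the same split. Of 54 with 40 or more UMIs in the cells of both classes together, 16 were higher with Slc17a6 in all 4 suspensions, 21 were higher with Gad1, Gad2 or Slc32a1 in all 4, and 17 were neither. Among the 187 cells with only Slc17a6 and the 203 with only Gad1, Gad2 or Slc32a1, Lhx2 gave 887 and 1 UMIs, Lhx9 gave 753 and 3, Barhl2 gave 268 and 1, and Pou4f1 gave 219 and 4. These factors are known from dorsal excitatory interneurons. Lhx2 and Lhx9 were also found in cells with a forebrain or midbrain factor, as given below. Sim1 of ventral excitatory interneurons (154 and 0 UMIs), Tlx3 of dorsal excitatory neurons (181 and 2) and Tbr1 of cortical glutamatergic neurons (162 and 1) lay on the same side. On the other side were Pax2 (19 and 991 UMIs) and Pax8 (1 and 408) of inhibitory spinal interneurons, Gata3 (0 and 366), the glycine transporter gene Slc6a5 (1 and 473), and the forebrain factors Six3 (11 and 384) and Dlx5 (8 and 160). Each of these genes lay on the same side in all 4 suspensions. Isl1 (137 and 180 UMIs), Foxp2 (319 and 496), Onecut1 (173 and 136), Reln (826 and 619) and Ntrk3 (377 and 293) did not. Onecut2, among the most widespread of the factors, lay on the Slc17a6 side in all 4 suspensions but by a small margin (604 and 421 UMIs).

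**Figure D4:**
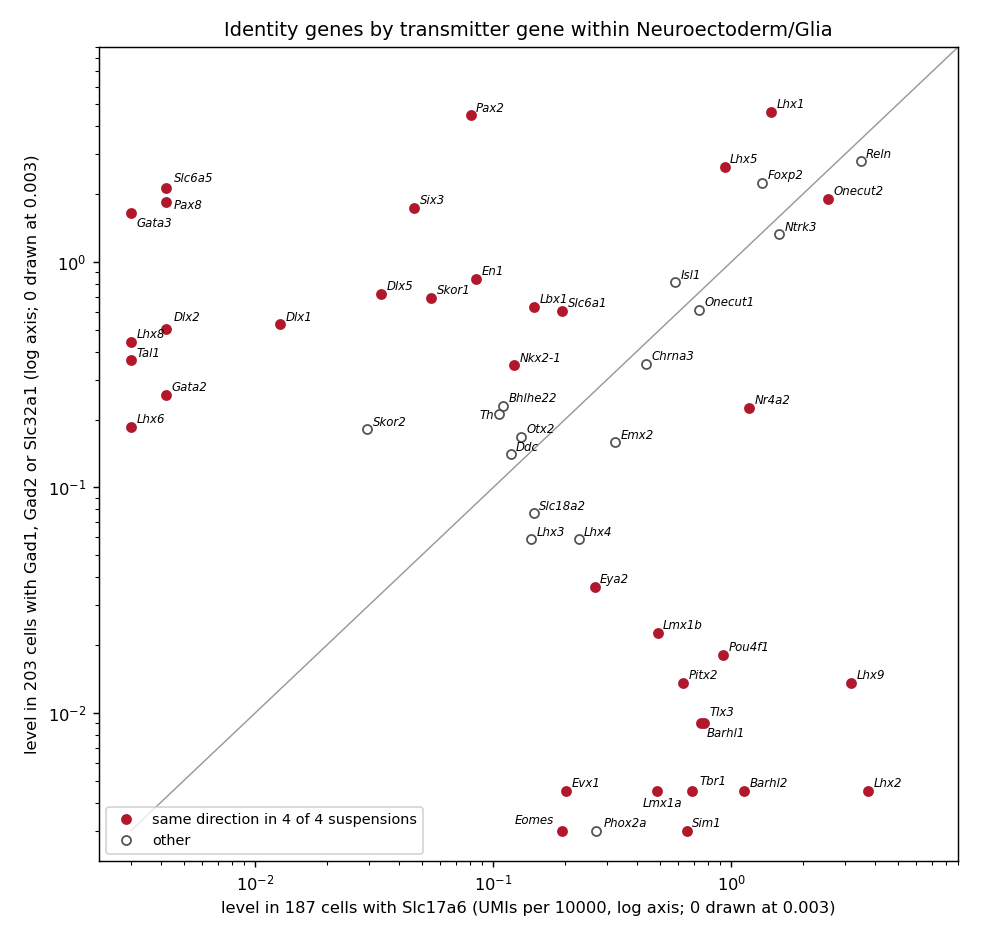
Levels of identity genes (UMIs per 10000 gene UMIs, both axes log, 0 drawn at the edge) in the 187 Neuroectoderm/Glia cells with only Slc17a6 (x axis) and the 203 with only Gad1, Gad2 or Slc32a1 (y axis), with filled points for genes that keep their side of the diagonal in 4 of 4 suspensions. Lhx2 (3.75 and 0.0045), Lhx9 and Barhl2 lie at the lower right, Pax2 (0.080 and 4.48), Slc6a5 and Six3 at the upper left, and Reln and Ntrk3 near the diagonal.

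Position along the body axis divided the cells as well. A Hox gene, the marker of hindbrain and spinal cord, was found in 277 of 489 cells (56.6%), any of 11 forebrain and midbrain factors in 127 (26.0%), both in 12 and neither in 97. The product of the shares would give 71.9 cells with both. In CNS Neuron cells 16 of 515 had both, where the product would give 73.3. The full list of 21 forebrain and midbrain genes also holds Reln and Nr4a2, which gave 934 and 161 UMIs in cells with a Hox gene and none of the 11. The share of 26.0% and the small overlap therefore hold for the 11 chosen factors only. Hox genes of groups 6 to 13, which mark the trunk, were found in 37.2% of the cells. Between the 265 cells with a Hox gene only and the 115 with a forebrain or midbrain factor only, Pax2 gave 966 and 1 UMIs, Slc6a5 gave 428 and 0, and Lbx1 gave 169 and 0. Lhx1 (961 and 301 UMIs) and Gad2 (779 and 708) were found in both groups, which differ in size. By level, Lhx1 stood at 2.93 and 2.25, each group being higher in 2 of 4 suspensions. Gad2 stood at 2.37 and 5.28, higher with forebrain or midbrain factors in 3 of 4. Lhx2 stood at 1.06 and 3.81 and Lhx9 at 0.902 and 2.03, higher with these factors in 4 and 3 suspensions. Of the factors named with them above, Barhl2 stood at 0.554 and 0.530 and Pou4f1 at 0.710 and 0.127. The summed Hox levels of the cluster did not stand apart from CNS Neuron cells (10.8 against 10.9 for groups 1 to 5, 12.1 against 12.5 for groups 6 to 13), and none of the 14 and 22 genes of these groups passed 2-fold in all suspensions in either direction.

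Sensory neuron genes lay on both sides of CNS Neuron cells. The list summed to 3.93 against 10.5, and of its 13 genes 5 were lower by 2-fold or more in all suspensions, with Pou4f1, Eya2 and Tlx3 among them, 2 were higher, with the peripheral neurofilament gene Prph among them, and 6 were neither. Over all 16158 genes 2.7% were lower and 3.58% higher. Eya2, a cofactor of placode and sensory ganglion cells, was found in 6.34% of thinned cells against 46.8%, whereas the neurotrophin receptor gene Ntrk3 was found in 29.7% against 16.1%, and Prph in 1.84% against 0.388%. By suspension the sensory list had levels of 3.23, 3.21, 5.16 and 4.89. The motor neuron list had levels of 2.49, 3.61, 7.68 and 7.51, and the monoaminergic list 0.204, 0.347, 0.919 and 1.08. On each of these lists the founders lay below the F1 suspensions.

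Founders and F1 suspensions were compared within the Neuroectoderm/Glia cells, since the annotation did not use the generation. Cluster 5 before RECODE held 9.15% and 11.3% of these cells in F0_8 and F0_9 but 17.7% and 20.4% in F1_1 and F1_mix, so that the cluster with the higher proneural and cell cycle exit levels took a larger share in both F1 suspensions. Of 9901 genes tested with edgeR's quasi-likelihood test on counts summed per suspension, 114 (1.15%) had a Benjamini-Hochberg adjusted p under 0.05, of which 65 (0.656%) were higher and 49 (0.495%) lower in founders, and 1348 had an unadjusted p under 0.05. The p-values measure the spread between these 2 and 2 suspensions, which were tagged and sequenced as 1 pool. The count rested on single suspensions, since it was 295 without F0_9, 28 without F1_1 and 23 without F1_mix, and it was 69 when 11 cells with a mitochondrial share of 5% or more were left out. Of these 11 cells 4 and 5 were from F0_8 and F0_9 and 1 each from F1_1 and F1_mix, and the median mitochondrial share was 2.27% and 2.47% in the founders against 2.12% and 2.05%. With the cells of cluster 3 alone, an alternative chosen after seeing the data, 93 genes passed. Y-linked genes did not divide the suspensions by generation, with levels of 2.05 and 0.0347 in the founders and 0.0303 and 0.897 in the F1 suspensions.

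None of the 4 label markers passed the test, and their median log2 difference (founders minus F1) was -0.19. Among the genes higher in founders, Negr1, a neuronal adhesion protein, had levels of 4.74 and 4.57 in F0_8 and F0_9 and of 1.46 and 1.31 in F1_1 and F1_mix, a log2 difference of 1.75 (SE 0.10, edgeR adjusted p = 0.000618). Nlgn1, a postsynaptic neuroligin, stood at 8.33 and 7.53 against 3.56 and 3.91 (log2 difference 1.08, SE 0.09, edgeR adjusted p = 0.00285). Grin2b, an NMDA receptor subunit, stood at 1.35 and 1.10 against 0.172 and 0.306 (log2 difference 2.30, edgeR adjusted p = 0.00541). Khdrbs2, Lingo2, Ptn, Ptprd, Hs3st4 and Rbfox1 were also higher, by 0.89 to 2.90 on the log2 scale. Npy, a neuropeptide, had levels of 0.521 and 0.486 against 0 and 0.0146, and its adjusted p was 0.00301 in edgeR's test.

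**Figure D5:**
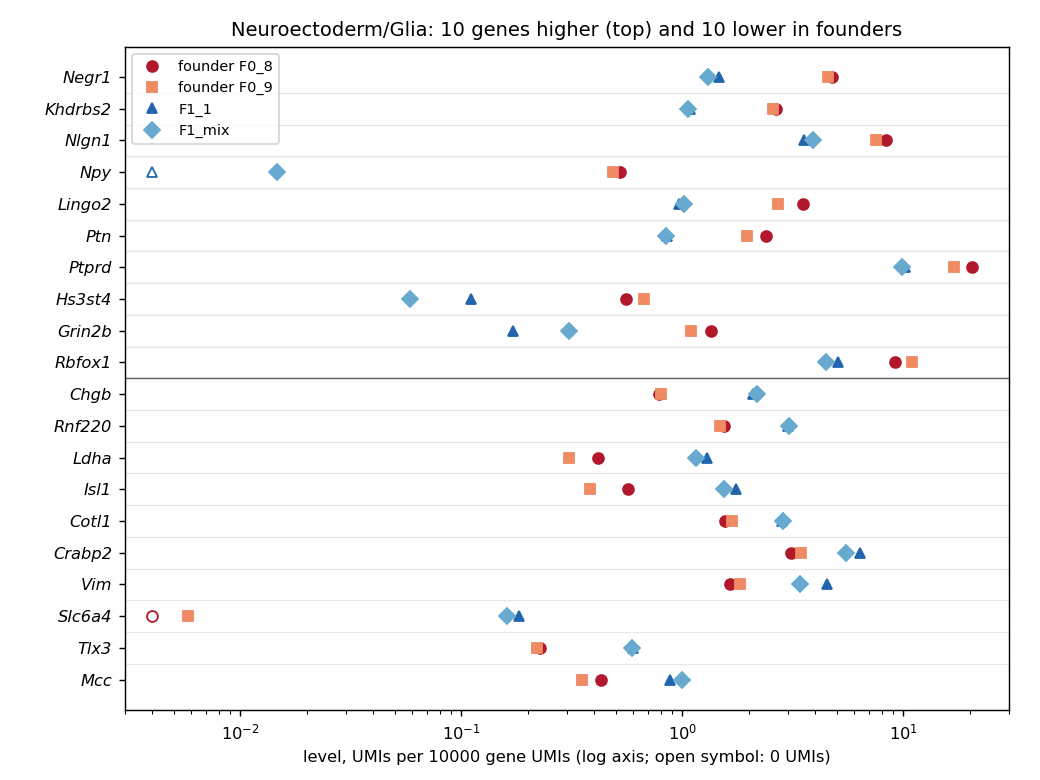
Levels (UMIs per 10000 gene UMIs, log axis) in the Neuroectoderm/Glia cells of founders F0_8 and F0_9 and of F1_1 and F1_mix, for the 10 genes in each direction with the smallest adjusted p, with open symbols for 0 UMIs. Negr1 and Nlgn1 lie higher in both founders and Chgb, Ldha, Isl1 and Vim lower, without overlap of the generations.

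The genes higher in founders were long, as 54 of 65 (83.1%) spanned over 100 kb with a median of 440 kb, whereas 13 of the 49 lower genes (26.5%) and 17.6% of all genes tested did. The share of UMIs in such genes was higher in both founders than in both F1 suspensions not only here (24.9% and 23.8% against 21.4% and 21.0%) but also in CNS Neuron (19.7% and 19.6% against 19.0% and 17.6%) and Neuronal Progenitor cells (15% and 14.6% against 13.1% and 12.3%). The part of gene length in the founder difference was not tested.

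The genes lower in founders included members of the motor neuron, sensory neuron and monoaminergic lists. Isl1, a LIM homeodomain factor of motor and sensory neurons, had levels of 0.570 and 0.382 in founders against 1.76 and 1.55 (log2 difference -1.79, SE 0.18, edgeR adjusted p = 0.0056), and was found in 5.66% and 4.79% of thinned founder cells against 10.4% and 16.8%. Chgb, a secretory granule protein, stood at 0.785 and 0.805 against 2.08 and 2.17 (log2 difference -1.42, SE 0.11, edgeR adjusted p = 0.00285). Slc6a4, the serotonin transporter, stood at 0 and 0.00579 against 0.182 and 0.160, with Fev and Tph2 of the same neurons also past the threshold, so that 3 of 6 tested monoaminergic genes were lower (0.495% of all genes tested were). These calls rested on 7 of the 502 cells, since a UMI of Slc6a4, Fev or Tph2 was found in 1 and 3 cells of the founders and in 1 and 2 cells of F1_1 and F1_mix. Slc6a4 and Fev were each found in 1 cell of F1_1 and 1 cell of F1_mix, and in F1_1 the same cell held all 3 genes. The 3 calls are thus not separate. Slc6a4 lost its call without F1_1 (edgeR adjusted p = 0.0869) and without F1_mix (edgeR adjusted p = 0.118). Of 9 tested motor neuron genes, Isl1 and Onecut2 were lower (median -1.42, with -0.0035 over all genes tested). Of 10 tested sensory neuron genes, Isl1 and Tlx3 were lower (median -1.05), and Tlx3 lost its call in 4 alternative settings. Onecut2 was found in 40.7% of all thinned cells. In the 115 cells with only a forebrain or midbrain factor Isl1 stood at 1.46, against 0.853 with only a Hox gene. Isl1 was higher in the former group in 3 of 4 suspensions. The motor list calls therefore do not single out motor neurons. Fewer cells of a class and less RNA per cell cannot be told apart in these sums.

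Where 0.656% of all genes tested were higher in founders, 3 of 14 ion channel genes (Cacna1c, Kcnq3 and Kcnd2), 1 of 16 postsynaptic receptor genes (Grin2b) and 1 of 22 guidance receptor genes (Robo2) were among them, and a single call says nothing about its list. That share is over genes of all lengths, whereas 54 of the 65 genes higher in founders spanned over 100 kb. The part of gene length in these list counts was not tested. Of 24 pan-neuronal genes only Nefm passed, with levels of 5.05 and 8.85 against 23.2 and 15.8. In the neuroepithelial list Sox2 was higher in founders (0.339 and 0.289 against 0.101 and 0.0948) and Vim lower (1.65 and 1.83 against 4.49 and 3.41), so that its 2 calls had opposite directions among 8 genes. In the proneural list Nhlh2 and Dll3 were lower and Neurod6 higher among 14. Ldha, the lactate dehydrogenase of glycolysis, had levels of 0.414 and 0.307 against 1.29 and 1.15 (log2 difference -1.76, SE 0.17, edgeR adjusted p = 0.00541). Of 17 glycolysis genes, a list set up after Ldha had been seen, 14 were tested, and besides Ldha itself 3 were lower (Tpi1, Pkm and Gpi1), where 0.495% of all genes tested were lower.

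The difference between generations was compared with that in the other neural types by an interaction term, with the suspension as a block. It differed from CNS Neuron cells for 13 of 10513 genes (0.124%) and from Neuronal Progenitor cells for 34 of 11323 (0.3%) at an adjusted p under 0.05 in edgeR's quasi-likelihood test. Isl1 was among the 13, since its log2 difference between founders and F1 was -1.79 here and 0.49 in CNS Neuron cells (difference -2.29, edgeR adjusted p = 0.0199), and Negr1 was among the 34 (1.75 against 0.47 in Neuronal Progenitor cells, difference 1.28, edgeR adjusted p = 0.021). Within CNS Neuron cells 77 of 9916 genes (0.777%) passed between the generations, and within Neuronal Progenitor cells 70 of 10668 (0.656%), and Ldha passed in both, with log2 differences of -1.08 and -0.70. The count against CNS Neuron cells was 59 without F0_8, 86 without F0_9, 25 without F1_1 and 68 without F1_mix, and that against Neuronal Progenitor cells 63, 100, 0 (701 at an unadjusted p under 0.05) and 22.

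EGFP had been left out of the clustering and could be compared between types. Its level in Neuroectoderm/Glia cells was 14.3, 12.7, 33.3 and 14.9 in F0_8, F0_9, F1_1 and F1_mix. It was lower than in CNS Neuron cells in 4 of 4 suspensions, with a mean log2 ratio of -0.32 (SD 0.09), and higher than in Neuronal Progenitor cells in 4 of 4, with 0.39 (SD 0.16). In a two-sided exact sign-flip permutation test both had the smallest p that 4 pairs allow (adjusted p = 0.188 over 3 comparisons). Against Ependymal cells the mean log2 ratio was 0.18 (SD 0.30, higher in 3 of 4, exact p = 0.375).

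Among cells of the 4 neural types, the Neuroectoderm/Glia cells made up 34.4% (exact interval 30.1 to 38.8%) of F0_8 and 32.3% of F0_9, and 21.3% and 23.9% of F1_1 and F1_mix. The founder mean was 10.7 percentage points higher (33.3% against 22.6%), and the two-sided exact permutation test gave p = 0.333, the smallest that 2 against 2 suspensions allow. The intervals cover counting error only.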

How the data were processed

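Cells of 4 suspensions of E11.5 embryos had been captured as 1 pooled 3′ library. The deposited matrices hold UMI counts, made by the authors with Cell Ranger (file headers name 7.2.0 and the submitters mm10) with the EGFP sequence added. The authors also deposited a cell table with cell types, total counts and the mitochondrial percent of each cell, after SoupX, DoubletFinder and RECODE, and after EGFP had been removed from the clustering. No further doublet caller was run. Values here come from the uncorrected counts. Another 16 columns of the table were not used.

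Counts were summed per suspension and type over 21937 genes, without oligo features. Ratios used sums plus 0.5 UMI, and gene lists were counted with no minimum level. Thinning drew 5000 UMIs from each cell. Intervals are exact (95%) and cover counting error only. Gene spans and positions came from RefSeq on GRCm38.p6, the build of the matrices, and 97.2% of genes matched. Suspensions were grouped by generation from the series description, and nothing says that they repeat a condition beyond that. Tests used edgeR 4.0.16 (quasi-likelihood, TMM, filterByExpr, Benjamini-Hochberg) in R 4.3.3, with DESeq2 1.42.0, RLE scaling, other filters, other cells and leaving out each suspension as alternatives. Descriptions used scipy 1.17.1, pandas 2.3.3 and numpy 2.4.6 under Python 3.11.15, with matplotlib 3.10.9 for plots. On simulated data (9895 genes) the founder test recovered 68.0% of genes changed by 1 and 91.9% of those changed by 2 on the log2 scale, with 10 false calls. The simulation gave all genes the same dispersion, so it does not cover genes that vary more, such as those carried by single cells.

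The named genes were the label markers, up to 4 members of each list by level with defining members at 0, the genes with the highest and lowest smallest ratio over suspensions against the other types (15 and 10 against all 3, 8 and 8 against each), the 10 smallest adjusted p in each direction between generations, and identity genes in 5% or more of thinned cells. Other list members are named where they make up a count, and Slc6a5, Sim1, Tlx2, Mbp, Syt1, Tpi1, Pkm, Gpi1, Msi1, Hes5, Foxd3 and Prph among them were picked after their values were seen where the rule did not already take them. Some genes that these rules take are not reported here, in the text or the plots. Members and lists were chosen with earlier results of these data known.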

Additional observations from a re-analysis of the deposited data

Results flagged for a closer look

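The difference between founders and F1 suspensions in Neuroectoderm/Glia cells was not the same in the other neural types for a small number of genes, by an interaction test with the suspension as a block. Against CNS Neuron cells 13 genes had such an interaction. Of the genes named above, these were Isl1 (founder difference here minus that in CNS Neuron cells -2.29 on the log2 scale, edgeR adjusted p = 0.0199), Chgb (-2.04, edgeR adjusted p = 0.0418), Nlgn1 (1.25, edgeR adjusted p = 0.0447) and Vim (-0.97, edgeR adjusted p = 0.0447). Isl1, Chgb and Vim were lower in founders here and did not pass the test in CNS Neuron cells, where their log2 differences were 0.49, 0.67 and -0.19.

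Against Neuronal Progenitor cells 34 genes had an interaction. The founder difference here minus that in Neuronal Progenitor cells was negative for Vim (-0.91, edgeR adjusted p = 0.00205), Ldha (-1.06, edgeR adjusted p = 0.0195) and Mcc (-1.75, edgeR adjusted p = 0.021). It was positive for Ptn (1.01, edgeR adjusted p = 0.00332), Lingo2 (1.99, edgeR adjusted p = 0.0195), Negr1 (1.28, edgeR adjusted p = 0.021) and Ptprd (0.62, edgeR adjusted p = 0.0379). Of these genes only Ldha passed the test between generations in Neuronal Progenitor cells, and there the fitted differences of Mcc (0.50) and Lingo2 (-0.32) had the opposite sign to those here (-1.27 and 1.64). The fitted value for Npy (8.85, edgeR adjusted p = 0.00207) rests on suspensions with 0 UMIs and depends on the prior count, so it is no measure of size. Without F1_1 0 genes passed against Neuronal Progenitor cells in edgeR's test (701 at an unadjusted p under 0.05), and the causes of these differences were not tested.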

How the results depend on the processing

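No paired analysis was possible because the labels give the suspensions of the generations no shared replicate numbers. The summed list ratios (12 values), the EGFP ratios (3) and the share among neural cells kept their direction under every alternative run for them. Counts of genes past 2-fold in all suspensions followed the limits. Against CNS Neuron cells the 366 genes became 755 at 1.5-fold, 108 at 4-fold, 1015 with no minimum level and 141 with a minimum of 2, and 385 to 419 with a suspension left out. Against Neuronal Progenitor cells 1376 became 2172, 637, 3186 and 447 (1425 to 1459), and against Ependymal cells 1201 became 1852, 549, 3844 and 389 (1279 to 1311). With 2 or more UMIs required, 23 in place of 40 identity genes reached 5% of the cells.

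The 114 founder calls became 711 with no filter on low counts, 69 with cells under 5% mitochondrial share, and 23 to 295 with a suspension left out, where the lone suspension of a generation was assumed to vary like the others. DESeq2 called 82 genes (59 higher and 23 lower, against 65 and 49). In cluster 3 cells only, an alternative chosen after seeing the data, 93 were called. The interaction counts became 227 (CNS Neuron) and 170 (Neuronal Progenitor) with no filter, and 25 to 86 and 0 to 100 with a suspension left out. Of 218 values for the 20 named founder genes, 203 kept their call, 15 lost it and 0 changed sign. The causes were not tested. Few UMIs limit the rarer identity genes.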

Other observations

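Other neuropeptide genes among the named ones were uneven between suspensions. Sst, the somatostatin gene, had levels of 1.73, 1.04, 1.22 and 3.72 in F0_8, F0_9, F1_1 and F1_mix, and 1 UMI in all Neuronal Progenitor cells against 1133 here. Cartpt had levels of 0.339, 1.0, 0.838 and 0.948, and 0 UMIs in Ependymal cells. Otp, a homeobox gene of hypothalamic and spinal neurons, stood at 1.37, 0.643, 1.04 and 1.37, and at 0.921 over all CNS Neuron cells against 1.10 over all Neuroectoderm/Glia cells.

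Onecut2 was found in 25.8%, 41.1%, 66.2% and 43.9% of thinned cells of the same suspensions, and the related Onecut1 in 8.18%, 11.6%, 37.7% and 21.5%. Prkg1 had the smallest adjusted p of the interaction against CNS Neuron cells, with a difference of -2.80 (SE 0.16, edgeR adjusted p = 0.000161).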
